A study of Mus musculus with 28 samples.

Results

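The neurotrophins are a small family of secreted growth factors, and 5 genes of the family and its receptors are described here across sorted mouse mammary cells: the ligand genes *Bdnf* and *Ntf3* and the receptor genes *Ngfr*, *Ntrk2* and *Ntrk3*. They were chosen by an earlier look at these same counts, at their levels by group and their differences between E+P and untreated libraries and between the labels, so their levels and changes are a description and carry no p-value of their own. All 5 were found among the 50600 genes in the count table, by matching each gene identifier to its mouse symbol. On the mouse GRCm38 assembly, *Bdnf* (ENSMUSG00000048482.14) lies on the plus strand at chr2:109674700-109727007 and *Ntf3* (ENSMUSG00000049107.13) on the minus strand at chr6:126101412-126166910. The receptor genes are *Ngfr* (ENSMUSG00000000120.6, minus strand, chr11:95568818-95587735), *Ntrk2* (ENSMUSG00000055254.14, plus strand, chr13:58806569-59133970) and *Ntrk3* (ENSMUSG00000059146.12, minus strand, chr7:78175959-78738012). Each is a protein-coding gene.

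The mice were adult females on a C57BL/6 background that carried *PdgfrαCre* and *R26mTmG*, and 4 were untreated while 3 had received estrogen and progesterone (E+P). RNA was sequenced from mammary stromal and luminal epithelial cells, sorted after endothelial cells, erythrocytes and leukocytes had been gated out. In these mice a Cre recombinase driven by the *Pdgfra* promoter permanently switches a cell and its progeny from tdTomato to GFP, so GFP+ cells express *Pdgfra* or descend from cells that did, and tdTomato+ cells are all the others in the same gate. Every mouse gave GFP+ stroma, tdTomato+ stroma, GFP+ luminal cells and tdTomato+ luminal cells, which makes 28 libraries in 8 groups. The Cre is constitutive, so the label does not say when a cell expressed *Pdgfra*, and the tdTomato+ gate is a mixture. The question these comparisons address is where the signals and their receptors are transcribed, and which of them differ after hormone exposure.

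Libraries held between 8623383 and 24583803 counts, and levels are given in CPM, counts brought to one common library total, with libraries scaled to each other by the trimmed mean of M values (TMM). On that scale 3 counts, the limit that a count of 0 allows, correspond to 0.122 to 0.308 CPM depending on the library, for counting error alone. A list of 7 luminal epithelial genes summed to 3829 to 7020 CPM in the luminal libraries and to 2.74 to 420.2 CPM in the stromal ones, the highest in tdTomato+ stroma of untreated mouse 3. A list of 6 fibroblast genes summed to 16270 to 24250 CPM in GFP+ stroma and to 588.1 to 2657 CPM in tdTomato+ stroma. tdTomato+ stroma instead held 5237 to 7779 CPM of a pericyte and smooth muscle list and 2477 to 22010 CPM of a skeletal muscle list. Between untreated and E+P tdTomato+ stroma the list means were 1709 and 739.2 CPM for fibroblast and 7306 and 13510 CPM for skeletal muscle genes. They were 6590 and 6245 CPM for pericyte and smooth muscle genes, and the ranges of each list overlapped. Their part in the E+P differences of tdTomato+ stroma was not tested. These are bulk samples of sorted cells, so fewer cells of a type and less RNA per cell cannot be told apart.

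Neurotrophins are made as longer precursors that furin-like convertases cut, and the mature dimers bind Trk receptor tyrosine kinases on the receiving cell. *Bdnf* and *Ntf5* encode ligands of TrkB (*Ntrk2*), and *Ntf3* encodes the main ligand of TrkC (*Ntrk3*). The p75 receptor (*Ngfr*) binds all of the ligands, and together with sortilin (*Sort1*) it binds the uncut precursors. The family is best known for the survival and wiring of sensory and sympathetic neurons, which also run through the mammary gland, but its genes are transcribed in many mesenchymal and epithelial cells.

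The promoter regions of *Ngfr* and *Bdnf* are shown because, of the 5, these genes differed most between untreated and E+P libraries. They are RefSeq windows of 300 bases around annotated transcription starts on GRCm38.p6, printed 5′ to 3′ on the strand of the gene. Capitals mark matches, on either strand, to GGTCA (the half-site of nuclear receptors such as the estrogen receptor), TGTTCT (a hexamer of the progesterone and glucocorticoid receptors) or CGTCA (the half-site of the cyclic AMP response element).
Ngfr, chr11:95587649-95587948, minus strand: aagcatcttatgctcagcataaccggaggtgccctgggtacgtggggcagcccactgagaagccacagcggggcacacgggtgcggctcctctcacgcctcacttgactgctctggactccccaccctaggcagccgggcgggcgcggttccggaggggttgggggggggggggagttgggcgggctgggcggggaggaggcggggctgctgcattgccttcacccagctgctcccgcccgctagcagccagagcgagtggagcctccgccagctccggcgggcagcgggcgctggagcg
Bdnf, window 1, chr2:109674450-109674749, plus strand: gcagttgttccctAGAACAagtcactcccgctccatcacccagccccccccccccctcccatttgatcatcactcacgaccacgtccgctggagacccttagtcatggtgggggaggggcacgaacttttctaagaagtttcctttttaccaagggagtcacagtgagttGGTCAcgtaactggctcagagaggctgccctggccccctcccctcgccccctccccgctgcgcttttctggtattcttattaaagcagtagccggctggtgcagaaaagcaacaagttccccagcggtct
Bdnf, window 3, chr2:109692186-109692485, plus strand: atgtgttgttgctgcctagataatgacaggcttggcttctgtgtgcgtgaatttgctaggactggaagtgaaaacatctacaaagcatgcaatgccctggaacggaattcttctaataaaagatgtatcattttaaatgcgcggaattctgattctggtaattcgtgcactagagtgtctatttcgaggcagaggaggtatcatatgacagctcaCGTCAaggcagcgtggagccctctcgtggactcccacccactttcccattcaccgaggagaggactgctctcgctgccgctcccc
Bdnf, window 6, chr2:109709133-109709432, plus strand: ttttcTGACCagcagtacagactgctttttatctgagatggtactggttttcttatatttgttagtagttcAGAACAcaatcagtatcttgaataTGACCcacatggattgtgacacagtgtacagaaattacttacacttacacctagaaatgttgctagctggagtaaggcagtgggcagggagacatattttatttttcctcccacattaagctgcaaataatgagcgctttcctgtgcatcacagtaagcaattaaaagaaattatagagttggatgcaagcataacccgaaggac

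The *Ngfr* window held none of the searched letters and has a GC content of 71.7%. *Bdnf* is transcribed from several alternative starts, and 7 windows were listed for it. Window 1 held 1 GGTCA and 1 TGTTCT, window 3 held 1 CGTCA, and window 6 held 2 GGTCA and 1 TGTTCT, with GC contents of 57.3%, 48.7% and 38.7%. The printed *Bdnf* windows are thus among those with matches. Of those not printed, window 2 held 1 TGTTCT, window 4 held 1 GGTCA, and windows 5 and 7 held none. Over all 32851 windows of the same length, 40.5% held GGTCA, 19% held TGTTCT and 20.8% held CGTCA. Of the 11 windows of *Ngfr*, *Ntrk2*, *Bdnf* and *Ntf3*, 3 held GGTCA, 3 held TGTTCT and 1 held CGTCA, all of them *Bdnf* windows. The full estrogen and cyclic AMP response elements, which contain GGTCA and CGTCA, were also searched. No full element was searched for TGTTCT. The estrogen response element (GGTCA, 3 free bases, TGACC) was in 0.07% of all windows and the cyclic AMP response element (TGACGTCA) in 1.79%, and both were in 0 of these 11. A match is a description of letters and not a bound site, and the gene-level counts do not say which start was used.

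Among the ligands, *Bdnf*, which encodes brain-derived neurotrophic factor, was highest in tdTomato+ luminal cells of E+P mice. It stood at 4.50, 6.13, 4.64 and 4.16 CPM in tdTomato+ luminal cells of the 4 untreated mice and at 72.7, 82.2 and 87.1 CPM in those of the 3 E+P mice. All E+P libraries lay far above all untreated ones, with means of 4.86 ± 0.875 (SD, n = 4) and 80.7 ± 7.30 CPM (SD, n = 3), a 16.6-fold difference. The edgeR fit gave a log2 fold change of 4.07 ± 0.64 (SE), which ranged from 3.98 to 4.21 when each mouse was left out in turn.

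In GFP+ luminal cells *Bdnf* was lower and more scattered. It stood at 1.03, 0.615, 2.95 and 0.161 CPM without treatment and at 12.6, 1.87 and 2.87 CPM after E+P. The E+P and untreated ranges overlapped, with the E+P library the higher in 10 of 12 pairs of mice, and E+P mouse 1 stood apart from the other two. The fitted E+P change was 2.12 ± 0.71 on the log2 scale, and ran from 0.84 without E+P mouse 1 to 3.15 without untreated mouse 3.

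In stroma *Bdnf* differed mainly by lineage label. tdTomato+ stroma held 12.6, 19.4, 10.98 and 9.58 CPM in untreated mice and 8.37, 14.1 and 14.8 CPM in E+P mice, and these ranges overlapped. GFP+ stroma held 0.291, 0.824, 0.898 and 0.801 CPM in untreated mice, from 4 to 15 counts per library, and 5.14, 1.83 and 2.09 CPM in E+P mice, from 35 to 65 counts. There the E+P library was the higher in 12 of 12 pairs, by 4.3-fold between the means and by 2.05 ± 0.45 on the log2 scale, against −0.10 ± 0.38 in tdTomato+ stroma. E+P mouse 1 was the highest, and without it the change was 1.43. The change was not called by edgeR with the filter on low counts or by limma-voom, and was called with no filter and by DESeq2.

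*Bdnf* was lower in GFP+ than in tdTomato+ cells of the same mouse in 7 of 7 mice in stroma and in 7 of 7 mice in luminal cells. Averaged over both treatments, the GFP+ minus tdTomato+ difference was −3.17 ± 0.31 in stroma and −2.88 ± 0.48 in luminal cells on the log2 scale. From highest to lowest mean the groups ran tdTomato+ luminal E+P, tdTomato+ stroma untreated, tdTomato+ stroma E+P, GFP+ luminal E+P, tdTomato+ luminal untreated, GFP+ stroma E+P, GFP+ luminal untreated and GFP+ stroma untreated. Only the first of these stood clear of its neighbour, and every other neighbouring pair overlapped. *Bdnf* shares 896 exonic bases with the antisense gene *Gm45346*, and as the strand setting of the counting is not given in the sources used here, reads from the pair may not be separated.

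**Figure D1:**
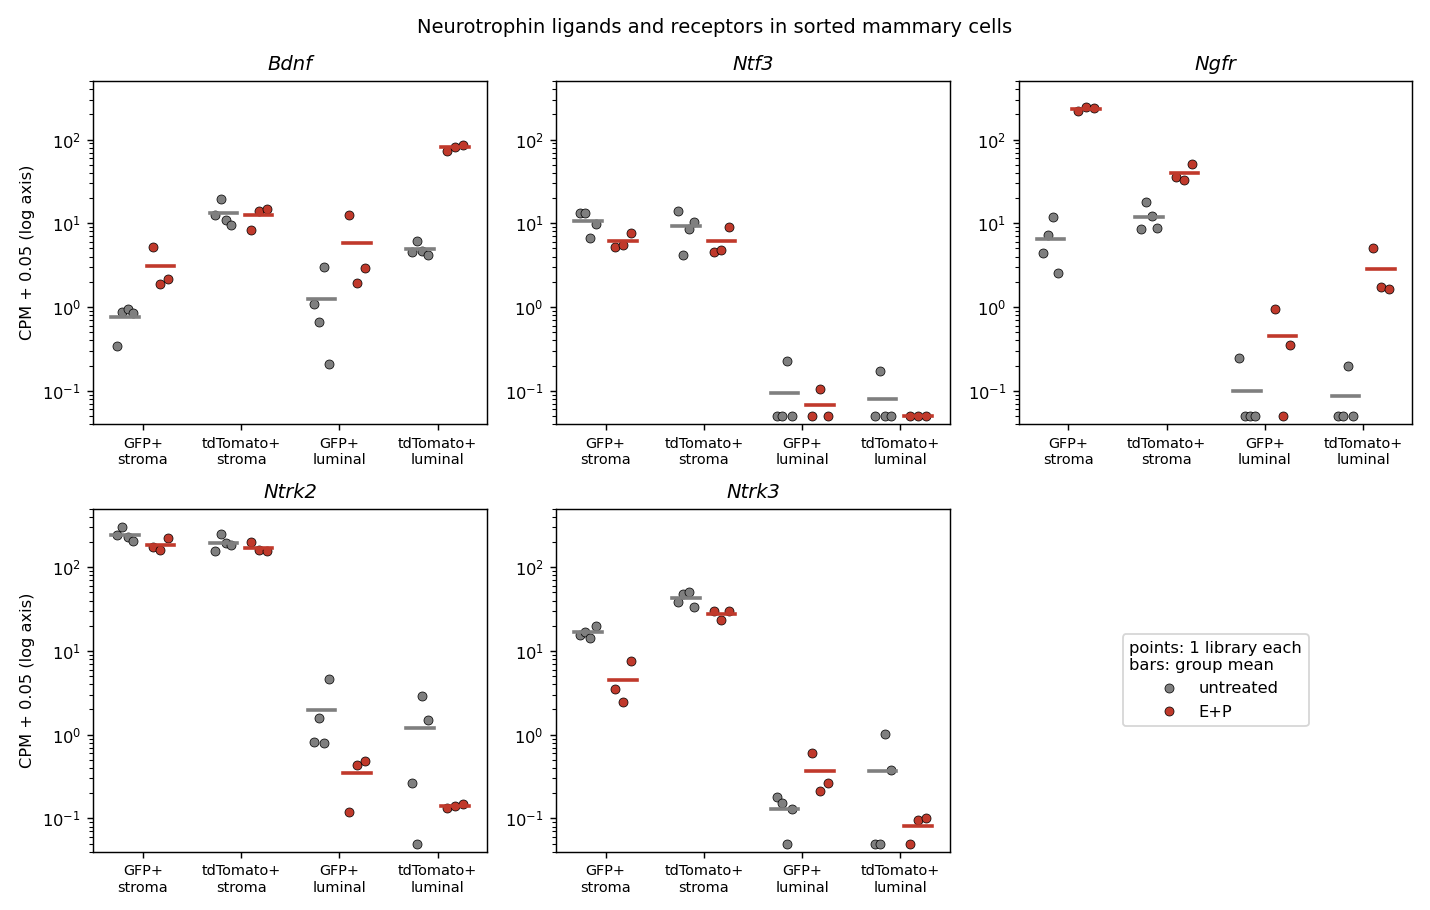
Level of each gene in every library, as CPM + 0.05 on a log axis, by sorted subset, with untreated mice in grey (n = 4) and E+P mice in red (n = 3); bars are group means. *Bdnf* stands at 72.7 to 87.1 CPM in E+P tdTomato+ luminal cells and *Ngfr* at 222.1 to 244 CPM in E+P GFP+ stroma, each above all other groups of its gene, while *Ntf3* and *Ntrk2* are stromal under both treatments.

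*Ntf3*, which encodes neurotrophin-3, was a stromal transcript. GFP+ stroma held 13.2, 13.2, 6.59 and 9.87 CPM in untreated and 5.22, 5.45 and 7.67 CPM in E+P mice, and tdTomato+ stroma held 13.9, 4.12, 8.43 and 10.4 CPM in untreated and 4.46, 4.76 and 8.87 CPM in E+P mice. In GFP+ stroma 2 of the 3 E+P libraries lay below every untreated one and the other within their range, and in tdTomato+ stroma all 3 lay within the untreated range. The log2 change with E+P was −0.83 ± 0.38 in GFP+ stroma and −0.63 ± 0.38 in tdTomato+ stroma, and the GFP+ minus tdTomato+ difference was 0.07 ± 0.27.

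Of 1696 *Ntf3* counts in all, 6 came from luminal cells, and 11 of the 14 luminal libraries held 0. The 4 stromal groups overlapped one another in the order GFP+ untreated, tdTomato+ untreated, GFP+ E+P and tdTomato+ E+P, with means from 10.7 down to 6.03 CPM, and all of them stood above the luminal groups. *Ntf3* was not tested in the luminal fit, where it fell under the filter on low counts.

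*Ntf5*, which encodes neurotrophin-4, is given for comparison and was not among the 5 chosen genes. The lists that hold it were also chosen with earlier results of these data known. The p-values of *Ntf5* and of the other list genes are therefore a description and not new evidence. *Ntf5* had the opposite distribution to *Ntf3*. Its group means were 1.74 to 2.76 CPM in luminal cells and 0.0481 to 0.0969 CPM in stroma, and the stromal minus luminal difference was −4.70 ± 0.46 on the log2 scale (adjusted p = 9.8e-10 by edgeR's quasi-likelihood test with Benjamini-Hochberg adjustment). Its E+P change was −0.66 ± 0.41 in GFP+ (adjusted p = 0.303) and −0.07 ± 0.39 in tdTomato+ luminal cells (adjusted p = 0.911).

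Among the receptors, *Ngfr*, which encodes p75, had the widest range of levels in stroma. GFP+ stroma held 4.37, 7.27, 11.7 and 2.49 CPM in untreated mice and 222.1, 244 and 235.7 CPM in E+P mice. The groups were far apart, with means of 6.45 ± 4.00 (SD, n = 4) and 233.9 ± 11.03 CPM (SD, n = 3), a 36.3-fold difference. The fitted log2 fold change was 5.13 ± 0.43 and ranged from 4.87 to 5.59 when each mouse was left out.

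In tdTomato+ stroma *Ngfr* stood at 8.61, 17.8, 12.1 and 8.63 CPM in untreated mice and at 35.6, 32.7 and 51.4 CPM in E+P mice. The ranges did not overlap, and the difference was 3.39-fold between the means and 1.75 ± 0.39 on the log2 scale. The difference of the log2 changes, GFP+ minus tdTomato+, was 3.38 ± 0.56. The basal epithelial list, to whose cell type *Ngfr* is also native, summed to 4.12 to 16.7 CPM in untreated and 18.4 to 34.8 CPM in E+P tdTomato+ stroma, of which the oxytocin receptor gene *Oxtr* made up 3.42 of 8.91 CPM on average before and 20.4 of 29.3 CPM after E+P. In GFP+ stroma the same list summed to 3.91 to 7.94 and 1.90 to 3.04 CPM, and the luminal list to 17.7 to 77.9 and 4.14 to 5.24 CPM. Their part in the *Ngfr* difference was not tested.

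The order of the 2 stromal subsets turned with treatment. In each of the 4 untreated mice *Ngfr* was the lower in GFP+ cells, although the group ranges overlapped, and in each of the 3 E+P mice it was higher in GFP+ stroma with no overlap. The difference averaged over treatments was 0.81 ± 0.28 on the log2 scale and was not called by edgeR with the filter on low counts. It was called with no filter (0.84), by DESeq2 (0.76), by limma-voom (0.78), with the mouse as a block (0.77 ± 0.17) and without untreated mouse 4 (0.88). The difference of the E+P changes was likewise not called by edgeR with the filter, and was called with no filter (3.38), by DESeq2 (3.40), by limma-voom (3.53) and with the mouse as a block (3.53 ± 0.35).

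Luminal *Ngfr* was low. tdTomato+ luminal cells held 0, 0, 2 and 0 counts in untreated mice and 61, 38 and 32 counts in E+P mice, the latter at 4.99, 1.70 and 1.60 CPM. The ratio of 131 to 2 counts, scaled for depth, was 87.5, with a 95% exact Poisson interval of 23.7 to 730 that covers counting error only. The untreated group rests on 2 counts, so the fitted log2 change of 6.28 ± 1.26 depends on the prior count and is no bound. The call made by edgeR for this difference was lost without untreated mouse 1, untreated mouse 4 or E+P mouse 1, where the fitted log2 changes were 5.92, 5.79 and 5.50. Without untreated mouse 3, which held both of the counts, the fitted value was 8.6.

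GFP+ luminal cells held 3, 0, 0 and 0 *Ngfr* counts in untreated mice and 13, 0 and 7 in E+P mice, a ratio of 6.6 with a counting interval of 1.96 to 34.7. One E+P library held 0 counts, so the groups overlapped. Sums of other cell type lists moved with *Ngfr* and *Bdnf* in luminal cells. In tdTomato+ luminal cells the fibroblast list summed to 6.4 to 33.5 CPM in untreated and 27.2 to 60.1 CPM in E+P libraries. Within it the mean of *Dcn*, the decorin gene, went from 4.85 to 37.1 CPM and that of *Pdgfra* from 4.02 to 4.84 CPM, while *Col1a1* stood at 5.10 and 0.724 CPM, *Dpt* at 0.479 and 0.0571 CPM, *Lum* at 0.270 and 0.112 CPM, and *Pi16* at 0.156 and 0 CPM. A list of 5 basal epithelial genes summed to 7.67 to 19.2 and 37.2 to 63.8 CPM. All 5 basal genes had counts in every one of these libraries, with group means of *Trp63* at 1.19 and 23.0 CPM, *Krt17* at 2.66 and 13.7 CPM, *Oxtr* at 6.40 and 9.01 CPM, *Krt14* at 2.04 and 2.28 CPM and *Krt5* at 0.485 and 0.267 CPM. In GFP+ luminal cells the basal list summed to 42.3 to 87.2 and then 121.8 to 134.6 CPM, and the fibroblast list to 22.7 to 58.2 and then 14.5 to 14.8 CPM. Their part in the *Ngfr* and *Bdnf* differences was not tested.

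p75 also marks Schwann cells, and a list of 11 Schwann cell genes summed to 458 to 616.8 CPM in untreated and 463.8 to 477.4 CPM in E+P GFP+ stroma. *Scn7a*, a sodium channel gene, made up most of that sum, at 487 and 437.8 CPM on average. The defining genes *Sox10* and *Foxd3* stood at or near 0 there, with group means of 0.606 and 0.0264 CPM for *Sox10*, and 0.0562 and 0 CPM for *Foxd3* in untreated and E+P mice. In tdTomato+ stroma the list summed to 129.2 to 171.5 and 134.4 to 153.2 CPM.

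**Figure D2:**
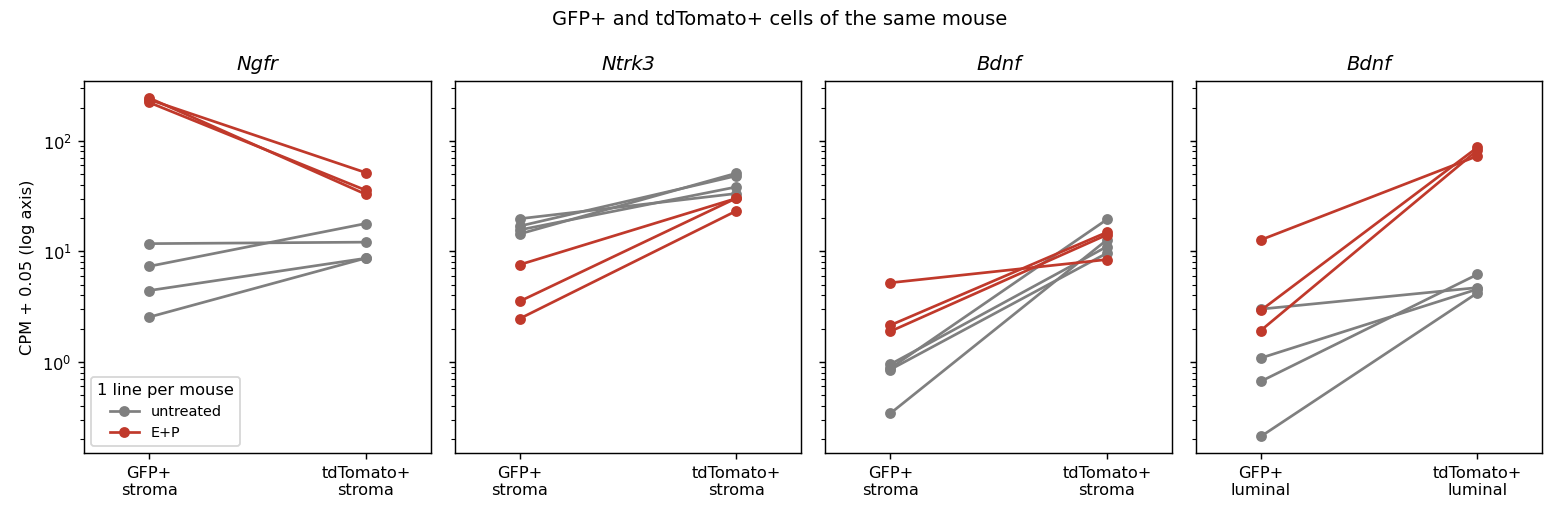
Level of *Ngfr*, *Ntrk3* and *Bdnf* in GFP+ and tdTomato+ cells of the same mouse, as CPM + 0.05 on a log axis, with 1 line per mouse (untreated in grey, n = 4, and E+P in red, n = 3). For *Ngfr* in stroma the lines run up towards tdTomato+ cells in the 4 untreated mice and down in the 3 E+P mice, while for *Ntrk3* in stroma and *Bdnf* in both lineages they run up in all 7.

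*Ntrk2*, which encodes TrkB, was abundant in stroma with both labels. GFP+ stroma held 240.1, 301.4, 228.5 and 206.9 CPM in untreated and 176.9, 162 and 221.3 CPM in E+P mice, and tdTomato+ stroma held 156.6, 246.3, 193.9 and 181.9 CPM and then 197.7, 160.5 and 154.8 CPM. The 4 stromal groups overlapped in the order GFP+ untreated, tdTomato+ untreated, GFP+ E+P and tdTomato+ E+P, with means from 244.2 down to 171 CPM. The E+P change was −0.41 ± 0.17 in GFP+ and −0.20 ± 0.17 in tdTomato+ stroma on the log2 scale, and the GFP+ minus tdTomato+ difference was 0.18 ± 0.12.

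In luminal cells *Ntrk2* stayed below 5 CPM. GFP+ luminal cells held 0.774, 1.54, 0.752 and 4.59 CPM in untreated and 0.0698, 0.385 and 0.435 CPM in E+P mice, with no overlap. tdTomato+ luminal cells held 0.217, 0, 2.87 and 1.47 CPM in untreated and 0.0818, 0.0894 and 0.1 CPM in E+P mice, with the E+P library the lower in 9 of 12 pairs. These E+P values in tdTomato+ cells lay below the level that 3 counts give. The fitted change in GFP+ luminal cells was −2.61 ± 1.12 and became −1.70 without untreated mouse 4, the highest library. The change in tdTomato+ luminal cells was −3.51 ± 1.31 and became −2.56 without untreated mouse 3, again the highest. Both of these libraries also stood apart in the skeletal muscle list, at 34.9 CPM in GFP+ luminal mouse 4 against 0.838 to 2.05 CPM in the other untreated GFP+ luminal libraries, and at 47.1 CPM in tdTomato+ luminal mouse 3 against 0.775 to 1.23 CPM. The latter also held 33.5 CPM of the fibroblast list, against 6.4 to 13.1 CPM in the other untreated tdTomato+ luminal libraries, and 3.90 CPM of the satellite cell list, against 0.271 to 0.368 CPM. The fibroblast list in GFP+ luminal cells went from 22.7 to 58.2 CPM down to 14.5 to 14.8 CPM with E+P. Their part in the luminal *Ntrk2* values was not tested.

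*Ntrk3*, which encodes TrkC, had its lowest stromal levels in GFP+ cells and in E+P mice. GFP+ stroma held 15.6, 16.9, 14.3 and 19.7 CPM in untreated mice and 3.48, 2.41 and 7.52 CPM in E+P mice. The groups did not overlap, the untreated mean was 3.71 times the E+P mean, and the log2 change was −1.91 ± 0.30. It was called by edgeR with all mice, but not without untreated mouse 1 (−1.95), untreated mouse 2 (−1.91), untreated mouse 4 (−1.82), E+P mouse 1 (−1.77) or E+P mouse 2 (−1.62).

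tdTomato+ stroma held 38.2, 48.1, 50.9 and 33.3 CPM of *Ntrk3* in untreated and 30.2, 23.2 and 30.1 CPM in E+P mice. Here too the ranges did not overlap, but the change was smaller, at −0.63 ± 0.27. The difference of the changes, GFP+ minus tdTomato+, was −1.28 ± 0.39. All 7 mice had less *Ntrk3* in GFP+ than in tdTomato+ stroma, with a mean difference of −2.04 ± 0.20, and the 4 stromal groups formed 4 separate steps with means of 42.6, 27.8, 16.6 and 4.47 CPM.

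Luminal *Ntrk3* was near the counting limit, with 43 of its 4925 counts in luminal cells. In GFP+ luminal cells the 3 E+P libraries, at 0.558, 0.165 and 0.218 CPM from 3 to 8 counts, lay above the 4 untreated ones, at 0 to 0.129 CPM. In tdTomato+ luminal cells the untreated libraries reached 0.958 CPM and the E+P ones 0.0501 CPM, and the ranges overlapped. *Ntrk3* was not tested in the luminal fit. The counts of *Ntrk2* and *Ntrk3* are per gene and do not separate full-length receptors from the truncated forms that lack the kinase.

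Levels of different genes can be compared only per length, here as CPM per kilobase of all annotated exons joined, which for *Ntrk2* and *Ntrk3* includes long alternative ends. On that scale of levels GFP+ stroma of untreated mice held *Ntrk2* at 12.7, *Ntf3* at 6.26, *Ngfr* at 1.87, *Ntrk3* at 0.55 and *Bdnf* at 0.113. After E+P *Ngfr* led in the same cells at 67.9, against 9.68 for *Ntrk2* and 3.57 for *Ntf3*. In tdTomato+ luminal cells of E+P mice *Bdnf* stood at 13.0 and *Ngfr* at 0.802, with the other three at or below 0.00469.

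**Figure D3:**
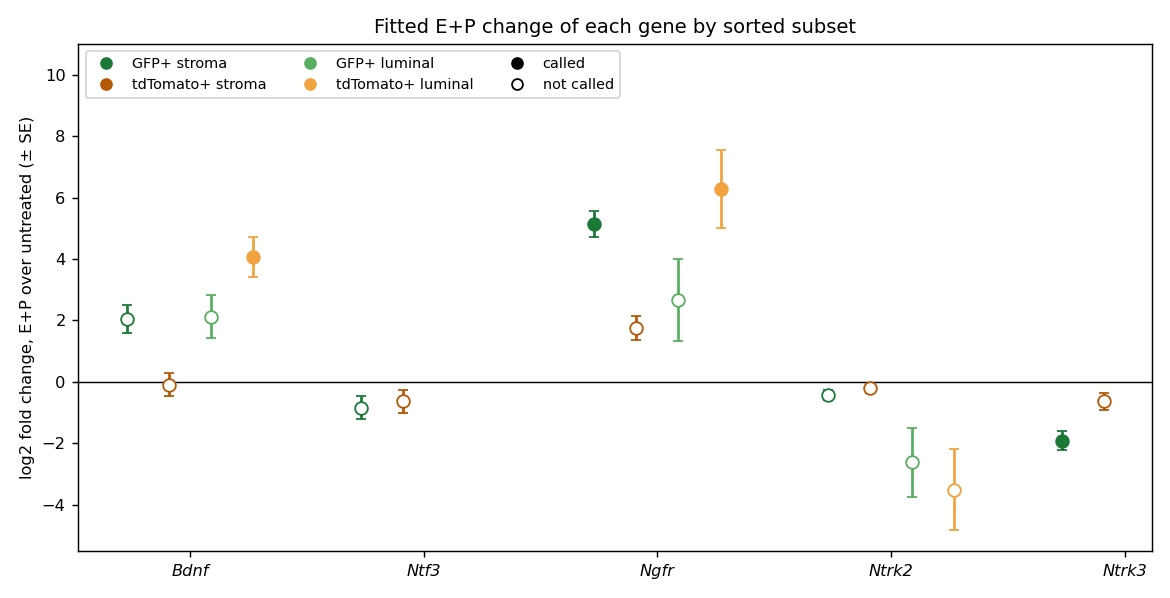
Fitted log2 fold change of each gene, E+P over untreated, with its standard error, in the 4 sorted subsets; filled points were called by edgeR at the 0.01 threshold and open points were not, and *Ntf3* and *Ntrk3* have no point in luminal cells because they were not tested there. *Ngfr* in GFP+ stroma stands at 5.13 and *Bdnf* in tdTomato+ luminal cells at 4.07, and the *Ngfr* point in tdTomato+ luminal cells rests on 2 counts in the untreated group.

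A gene was called where edgeR's quasi-likelihood test gave a Benjamini-Hochberg adjusted p under 0.01 over all genes of the fit, and the counts of called genes among the 5 are set beside the share of all tested genes called, from which nothing is read since these contrasts were in view when the genes were chosen. With E+P in GFP+ stroma 2 of 5 were called, *Ngfr* higher and *Ntrk3* lower, where 0.231% of all genes were called. In tdTomato+ stroma edgeR called 0 of 5 (0.124% of all genes), with 2 at an unadjusted p under 0.05, 1 called by DESeq2 and 0 by limma-voom. In GFP+ luminal cells edgeR called 0 of the 3 tested (5.96% of all genes), with 2 at an unadjusted p under 0.05 and 0 called by DESeq2 or limma-voom. In tdTomato+ luminal cells 2 of 3 were called, *Bdnf* and *Ngfr*, both higher (14.1% of all genes).

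The difference of the E+P response between GFP+ and tdTomato+ cells was called by edgeR for 0 of 5 genes in stroma (0.045% of all genes), with 3 at an unadjusted p under 0.05 and 1, *Ngfr*, called by DESeq2, limma-voom and the fit with a mouse block. In luminal cells it was called for 0 of 3 (2.27% of all genes), with 0 at an unadjusted p under 0.05 and 0 by DESeq2 or limma-voom. There the difference for *Bdnf*, GFP+ minus tdTomato+, was −1.94 ± 0.95 on the log2 scale. Between the labels, 2 of 5 genes were called in stroma (42% of all genes), *Ntrk3* and *Bdnf*, and 1 of 3 in luminal libraries (34.7% of all genes), *Bdnf*, all lower in GFP+ cells. Between stroma and luminal cells 4 of 5 were called (63.5% of all genes), all higher in stroma, and *Bdnf* was the exception at −0.68 ± 0.30. The E+P and label comparisons of a lineage use the same libraries, and all comparisons rest on the same 7 mice.

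Sortilin and its relatives, which bind proneurotrophins or sort them inside the cell, were split by lineage and label. *Sort1* was lower in stroma than in luminal cells (log2 difference −1.49 ± 0.09, edgeR adjusted p = 9.71e-14) and lower in GFP+ than tdTomato+ cells in stroma (−2.64 ± 0.13, adjusted p = 5.55e-11) and in luminal cells (−1.47 ± 0.12, adjusted p = 1.05e-06). Its group means were 21.2 and 12.5 CPM in GFP+ stroma, 105.7 and 91.8 CPM in tdTomato+ stroma, 77.3 and 67.0 CPM in GFP+ luminal cells, and 167.3 and 235.4 CPM in tdTomato+ luminal cells, untreated and E+P. No E+P change of *Sort1* was called (adjusted p from 0.032 to 0.581).

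Of the 6 sortilin family and co-receptor genes tested in stroma, 5 were called lower and 1 higher in GFP+ cells, with a median difference of −2.68, against 42% called and a median of −0.01 over all genes tested. *Sorcs1* differed most, by −6.61 ± 0.42 (adjusted p = 7.3e-10 by edgeR), with group means of 15.5 and 14.9 CPM in tdTomato+ stroma and 0.185 and 0.147 CPM in GFP+ stroma, untreated and E+P. *Sorl1*, which encodes a sorting receptor, was higher in luminal cells (stroma minus luminal −5.43 ± 0.23, adjusted p = 9.72e-16). It fell with E+P in GFP+ luminal cells (log2 change −1.298 ± 0.16, adjusted p = 0.000406) and in tdTomato+ luminal cells (−2.24 ± 0.17, adjusted p = 1.61e-06). The call in GFP+ cells was lost with the replicate number as a block. *Sorcs2* fell in tdTomato+ luminal cells (−2.86 ± 0.67, adjusted p = 0.00756). That call was lost with no filter on low counts and when any mouse but untreated mouse 2 was left out, at −3.13 to −2.38.

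**Figure D4:**
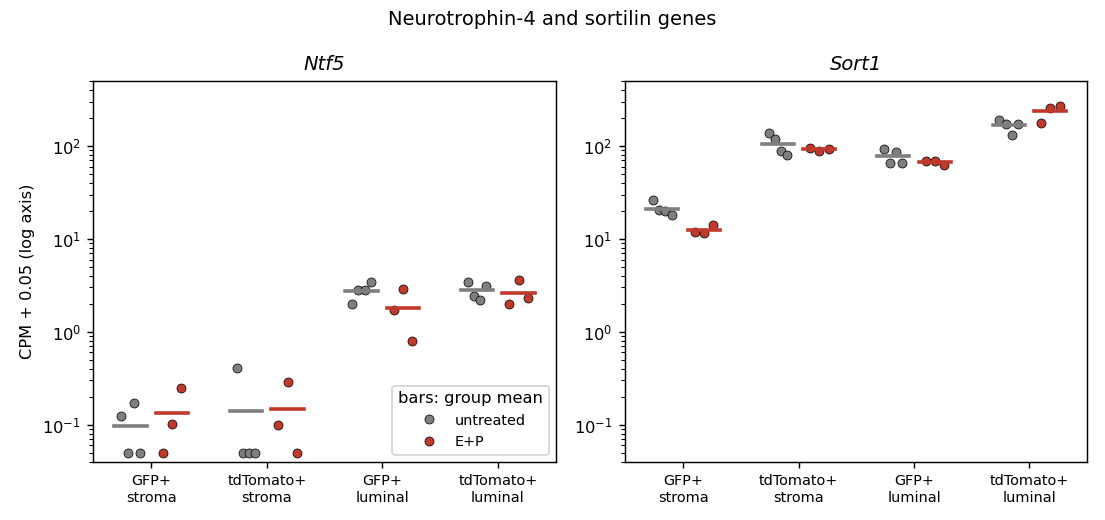
Level of *Ntf5* and *Sort1* in every library, as CPM + 0.05 on a log axis, by sorted subset, with untreated mice in grey (n = 4) and E+P mice in red (n = 3); bars are group means. *Ntf5* has group means of 1.74 to 2.76 CPM in luminal cells and at most 0.0969 CPM in stroma, and *Sort1* is lower in GFP+ than tdTomato+ cells of each lineage on average.

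Genes listed for the processing of neurotrophin precursors, convertase genes and *Plat*, were mostly higher in GFP+ than in tdTomato+ stroma. Of the 5 tested, 4 were called higher and 0 lower, with a median difference of 1.52. The enzyme made from *Plat* does not cut the precursors but activates plasminogen, whose gene *Plg* was not tested. Of all 17783 genes tested there, 3671 were called higher and 3795 lower (42% in all), with a median of −0.01. *Pcsk6*, a convertase gene, differed by 3.32 ± 0.39 (edgeR adjusted p = 1.43e-05) and *Plat*, the gene of tissue plasminogen activator, was higher in stroma than in luminal cells by 7.54 ± 0.18 (adjusted p = 4.27e-21). *Pcsk6* rose with E+P in GFP+ luminal cells, from a mean of 1.40 to 22.2 CPM (3.90 ± 0.46, adjusted p = 0.000377), and in tdTomato+ luminal cells, from 2.96 to 11.3 CPM (1.96 ± 0.42, adjusted p = 0.00442). The second call was lost without untreated mouse 1 (2.01), E+P mouse 2 (1.65) or E+P mouse 3 (1.95), and with no filter on low counts. Both calls were lost with the replicate number as a block.

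*Furin* rose with E+P in tdTomato+ luminal cells, from 103.8 to 154.7 CPM in untreated to 183.7 to 325 CPM in E+P mice (1.15 ± 0.16, edgeR adjusted p = 0.000218), and stood at 105.7 to 127.4 and 105.1 to 107.1 CPM in GFP+ luminal cells. The difference of the changes was −1.27 ± 0.23 (adjusted p = 0.00505), and the call was lost without untreated mouse 1 (−1.20), 2 (−1.31) or 3 (−1.24) or E+P mouse 2 (−1.17) or 3 (−1.09). *Furin* cuts many precursors besides the neurotrophins.

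The 55 other genes of the pathway lists cover ligands, co-receptors, proteases, adaptors, targets and the GDNF family. Their E+P calls are set beside the share of all genes called. By edgeR 0 of 47 tested were called in GFP+ stroma, against 0.231% of all genes, with a median log2 change of −0.01. There 7 had an unadjusted p under 0.05 by edgeR, and DESeq2 and limma-voom each called 1. In tdTomato+ stroma 1 of 47 was called, *Gfra1*, against 0.124% of all genes, with a median of −0.06. In GFP+ luminal cells 1 of 42 was higher and 1 lower, against 5.96% of all genes called. In tdTomato+ luminal cells 9 were higher, 4 lower and 29 not called, against 14.1% of all genes called. The median there was −0.07, against −0.05 over all genes tested.

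The adaptors that carry the receptor signal made up most of those 9. Of 14 Trk adaptor and effector genes tested in luminal cells, 5 rose and 1 fell with E+P in tdTomato+ cells, where 14.1% of all genes were called, and 0 were called by edgeR in GFP+ cells, where 5.96% were. Whether the subsets differ in this was not tested on the list. Among all 9, *Ret*, the receptor gene of the GDNF family, rose most, from a mean of 0.475 to 4.74 CPM (3.33 ± 0.38, adjusted p = 4.34e-05). *Bex3*, whose protein binds p75, rose from a mean of 37.2 to 90.0 CPM (1.28 ± 0.19, adjusted p = 0.000381), the only one of 8 p75 adaptor genes called there. Between the labels *Shc2*, an adaptor gene, was higher in GFP+ than tdTomato+ stroma (3.13 ± 0.19, adjusted p = 4.28e-10) and lower in GFP+ than tdTomato+ luminal cells (−3.17 ± 0.46, adjusted p = 0.000139).

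Genes that neurotrophin signalling can induce in neurons include *Arc* and *Npas4*, which respond to other stimuli too. *Arc* was called higher in GFP+ than tdTomato+ luminal cells (2.01 ± 0.50, edgeR adjusted p = 0.00533). This call was lost in 5 of the 7 leave-one-out fits, at 1.78 to 2.15, with untreated mouse 4 and E+P mouse 1 the exceptions. The same call was lost with no filter on low counts. In stroma the label differences ran both ways. Of 5 genes of this list tested there, 1 was called higher and 2 lower in GFP+ cells, where 42% of all genes were called. *Arc* was the higher one (2.07 ± 0.22, edgeR adjusted p = 7.96e-07). *Npas4* was lower in GFP+ than tdTomato+ stroma (−5.30 ± 0.80, adjusted p = 2.31e-05), at most 2.81 CPM in any library. No gene of this list was called for E+P by edgeR in any subset.

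Across the 28 libraries, the protein-coding genes most like each member by Pearson correlation of log2 CPM were picked out of 14766, as a description, since lineage alone sets much of any such correlation. *Ngfr* was most like *Cadm2* (r = 0.932), *Chsy1* (0.914) and *Mast2* (0.91). *Bdnf* was most like *Rgs2* (0.887), *Lrrc10b* (0.866) and *Nxpe3* (0.857). *Ntrk2* was most like *Pdgfrb* (0.992), *Zeb2* (0.991) and *Sparcl1* (0.989), *Ntrk3* was most like *Tbx5* (0.977), *Rcan2* (0.976) and *Vtn* (0.975), and *Ntf3* was most like *C1qtnf7* (0.986), *Dmrt2* (0.985) and *Gdnf* (0.982). By rank correlation 2 of the 3 genes were shared for *Ngfr*, 1 for *Ntrk3* and 0 for the other members.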

How the data were processed

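Sorted cells of individual mice were profiled by RNA-seq with a stranded low-input total RNA kit. Per the labels and the study's methods, the authors aligned reads with STAR 2.5.2a to GRCm38.p5 and deposited raw counts per gene, without normalization, in 1 table of 50600 rows. The strand setting, the annotation release and the RNA quality of each library are not given in the sources used here. The study's methods give RNA quality only as a wide range over the samples, with a fragmentation time adapted to RNA of lower quality. Which libraries came from such RNA is not stated, and its part in the levels and differences was not tested. Of the identifiers, 50376 matched GENCODE M21, which gave symbols, coordinates and exon lengths.

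Counts were scaled by TMM, filtered with filterByExpr by group and tested in edgeR 4.0.16 (R 4.3.3) with robust quasi-likelihood fits of all 28 libraries, of the 14 stromal and of the 14 luminal ones. A call needed an adjusted p under 0.01 over all genes of a fit. Alternatives were DESeq2 1.42.0, limma 3.58.1 with voom, DESeq2 size factors, no filter on low counts, blocks for mouse or number, and leaving out each mouse with all its libraries. Scripts were tested on simulated counts. CPM are given as mean ± SD, and ± after a log2 value is the standard error. The p-values measure the spread between libraries of a group, which come from different mice. The main fits hold no term for the mouse, so libraries of the same mouse count as independent.

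The members and lists were chosen with earlier results of these data known. Genes named are the members, *Ntf5*, *Sort1*, per comparison up to 2 other list genes in each direction with the largest called change and at least 1 CPM in the higher group, the 3 genes most like each member, and marker genes. *Bex3*, the E+P change of *Furin* and the stromal label difference of *Arc* were added after their values were seen. Some genes of these lists are not reported here. Each GFP+ library is paired with the tdTomato+ library of the same mouse by the labels, and their deviations from group means correlated at 0.0503 on average in stroma and 0.156 in luminal cells, against −0.0196 and −0.0601 between mice.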

Additional observations from a re-analysis of the deposited data

Results flagged for a closer look

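In 20 groups of 4 libraries (5 genes in the 4 untreated subsets), 5 held a library far from the others by Dixon's criterion. Its usual rate of 1 in 20 does not apply where the other libraries hold 0 counts, since any count then passes. *Bdnf* in GFP+ stroma of untreated mouse 1 stood at 0.291 CPM, from 4 counts, below the other three. The other 4 were single luminal libraries with a few counts where the rest of the group held 0. They were *Ngfr* at 0.1935 CPM in untreated GFP+ luminal mouse 1 and at 0.1473 CPM in untreated tdTomato+ luminal mouse 3, and *Ntf3* at 0.1734 CPM in untreated GFP+ luminal mouse 3 and at 0.1227 CPM in untreated tdTomato+ luminal mouse 2.

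The E+P response of *Gfra1*, which encodes the GDNF co-receptor, differed between the stromal subsets, with a difference of log2 changes (GFP+ minus tdTomato+) of 2.76 ± 0.41 (edgeR adjusted p = 0.00756). With the mouse as a block the difference was 2.77 and was not called (adjusted p = 0.0195). The call was also lost in limma-voom and when any mouse but untreated mouse 2 was left out, at 2.51 to 3.14. The E+P response of *Furin* differed between the luminal subsets by −1.27 ± 0.23 (adjusted p = 0.00505).

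*Ntrk3* in GFP+ luminal cells differed in direction from the stromal subsets. Every E+P library lay above every untreated one in GFP+ luminal cells, where the E+P mean was 0.3136 CPM, and below every untreated one in GFP+ stroma and in tdTomato+ stroma. The means in tdTomato+ luminal cells were 0.3209 CPM in untreated and 0.0316 CPM in E+P libraries, with overlapping ranges. The GFP+ luminal values rest on at most 8 counts per library, and the difference was not tested.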

How the results depend on the processing

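Over the members, 417 fold changes under an alternative kept their side of the threshold, 15 passed it only there and 10 lost it. None that was called turned, but some that were not called changed sign. The label difference of *Ngfr* in luminal cells went from −1.04 to as high as 0.35 when a mouse was left out. The number of genes called with E+P depended strongly on the method. In GFP+ stroma it was 41, against 459 with no filter on low counts, 189 by DESeq2, 100 by limma-voom, 146 with the replicate number as a block and 16 to 46 on leaving out each mouse. In tdTomato+ stroma it was 22, against 840, 378, 8, 14 and 1 to 85. In GFP+ luminal cells it was 985, against 2020 by DESeq2, 28 with the number block and 169 to 962 on leaving out each mouse, and in tdTomato+ luminal cells 2327, against 3558, 920 and 1140 to 2144. The difference of the E+P responses was called for 8 genes in stroma, against 506 with no filter, 105 by DESeq2, 4 by limma-voom, 13 with the mouse as a block and 1 to 13 on leaving out each mouse, and for 376 in luminal cells, against 1003 by DESeq2 and 33 to 314. Members called with E+P numbered 2 in GFP+ stroma, against 3 with no filter and by DESeq2, where *Bdnf* passed too, 1 with the number block and 1 to 2 on leaving out each mouse, and 2 in tdTomato+ luminal cells, against 1 and 1 to 2. In tdTomato+ stroma 0 members were called, against 1 with no filter and 1 by DESeq2, and for the stromal difference 0, against 3 with no filter and 1 each by DESeq2, limma-voom and the mouse block. E+P and untreated mice that share a number are different mice, with mean correlations of −0.0434 to 0.0137 between same-numbered libraries, and 3 of the 12 E+P libraries correlated best with the untreated library of their own number, so the number block is not a pairing. Blocking by mouse moved *Ngfr* past the threshold in the stromal label comparison and the stromal difference, and changed no other member's call. The cause of these shifts was not tested. Depth limits the luminal values of *Ngfr*, *Ntrk3* and *Ntf3*, many of which rest on 0 to 3 counts.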

Other observations

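The GDNF family, a neighbouring group of growth factors with its own receptors, held both stromal and luminal genes. *Gdnf* held 0 counts in all 14 luminal libraries and had group means of 15.5 and 17.7 CPM in GFP+ stroma and 10.6 and 5.09 CPM in tdTomato+ stroma, untreated and E+P. *Nrtn*, which encodes neurturin, was higher in luminal cells, with a stromal minus luminal difference of −4.98 ± 0.59 on the log2 scale (edgeR adjusted p = 7.88e-08). Of 8 genes of the family tested between lineages, 5 were called higher and 2 lower in stroma, with a median of 2.34. Over all 19569 genes tested, 6455 were called higher and 5972 lower (63.5% in all), with a median of 0.02.

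*Gfra1* stood at 12.7, 6.66, 9.24 and 12.5 CPM in tdTomato+ stroma of untreated mice and at 1.95, 3.61 and 2.39 CPM in that of E+P mice. It fell by 1.97 ± 0.30 on the log2 scale (edgeR adjusted p = 0.00726). That call was lost in limma-voom (adjusted p = 0.0231) and with the replicate number as a block. It was also lost when any mouse but untreated mouse 2 was left out, at −2.26 to −1.78. In GFP+ stroma *Gfra1* stood at 6.69 to 10.6 CPM in untreated and 13.7 to 17.2 CPM in E+P mice. In luminal cells *Gfra3* was higher (2.05 ± 0.57, adjusted p = 0.00881) and *Gfra4* lower (−2.80 ± 0.79, adjusted p = 0.00932) in GFP+ than tdTomato+ cells. The *Gfra3* call was lost without untreated mouse 1, 2 or 3 or E+P mouse 1 or 2, at 1.78 to 2.12. The *Gfra4* call was lost with the mouse as a block (−2.82, adjusted p = 0.0253) and without untreated mouse 2 or 4 or any E+P mouse, at −3.16 to −2.26.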
